A study of Arabidopsis thaliana with 14 samples.

Results

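The 7 loci AT5G27650, AT3G05430, AT5G40340, AT3G09670, AT5G02950, AT1G51745 and AT3G21295 of Arabidopsis thaliana are described here as a set of PWWP-domain genes under the working name PDP-type. They were taken by locus from a list that was drawn up with earlier results of these data known; the list itself applies no threshold on a measured value. All 7 were present among the 32548 genes of each of 2 deposited expression tables. RefSeq (TAIR10.1) calls each of them a Tudor/PWWP/MBT superfamily protein, and they are 7 of 16 genes so annotated. RNA was sequenced from whole seedlings of age 11 days in 14 libraries, which form 7 groups of 2. The first table holds wild-type Col-0, the single mutant fve and the double mutant suvh2/9. The second holds its own Col-0 libraries, the single mutant rrm1, the triple mutant pdp1/2/3 and the quadruple mutant pdp1/2/3;rrm1. All mutant alleles are labelled homozygous. The kind of each mutation, the number of independent lines and the loci behind the names PDP1, PDP2, PDP3 and RRM1 are not stated in these sources, so it is not stated below which members the pdp1/2/3 plants carry as mutants.

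The PWWP domain is a chromatin-reading fold named after a run of proline and tryptophan residues, and it binds histone tails that carry methylated lysines as well as DNA. In Arabidopsis, PDP proteins are known as partners of FVE and MSI5, WD-repeat proteins that bind histones, and of Polycomb Repressive Complex 2, which places a repressive methyl mark on histone H3. The best known target of this group in seedlings is FLC, a MADS-box repressor of flowering, together with its MAF relatives. PWWP proteins of Arabidopsis also occur in the PEAT complex and in the HUA2 and ATX families. The working name PDP-type does not mean that every member of the set is a partner of FVE. Some members may belong to PEAT instead, and which protein group each belongs to was not tested.

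The coding sequence around the PWWP-type motif is shown to let the 7 members be told apart and paired. Each stretch has 72 bases, lies within 1 exon and is read 5′ to 3′ on the coding strand from the RefSeq TAIR10.1 genome. Capitals mark the 12 bases of the 4 motif codons.
AT5G27650: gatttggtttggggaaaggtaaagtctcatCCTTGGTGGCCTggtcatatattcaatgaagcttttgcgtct
AT3G05430: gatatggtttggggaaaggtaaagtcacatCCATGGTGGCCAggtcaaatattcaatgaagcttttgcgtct
AT5G40340: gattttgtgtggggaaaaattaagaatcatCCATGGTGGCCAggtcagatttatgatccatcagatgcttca
AT3G09670: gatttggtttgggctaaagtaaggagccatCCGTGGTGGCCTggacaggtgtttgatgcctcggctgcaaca
AT5G02950: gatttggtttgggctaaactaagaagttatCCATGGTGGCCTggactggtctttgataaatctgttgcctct
AT1G51745: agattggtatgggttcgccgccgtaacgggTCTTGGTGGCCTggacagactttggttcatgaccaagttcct
AT3G21295: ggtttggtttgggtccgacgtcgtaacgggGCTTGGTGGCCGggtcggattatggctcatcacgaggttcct
The first motif codon encodes proline in 5 members and another residue in AT1G51745 and AT3G21295. The stretches lie at chr5:9786033-9786104 (plus strand) for AT5G27650, chr3:1568153-1568224 (plus) for AT3G05430 and chr5:16134225-16134296 (minus) for AT5G40340. They lie at chr3:2967237-2967308 for AT3G09670, chr5:691247-691318 for AT5G02950, chr1:19192106-19192177 for AT1G51745 and chr3:7489686-7489757 for AT3G21295, all on the plus strand.

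The members formed 3 close pairs and 1 member with no close partner among the 7. AT5G27650 and AT3G05430, with 1072 and 965 residues, shared 67 of the 72 printed bases, and their proteins were identical at 80.0% of the 60 residues that start at the motif. AT3G09670 and AT5G02950, with 726 and 632 residues, shared 57 of 72 bases and 68.3% of those residues. AT1G51745 and AT3G21295, the shortest pair at 635 and 645 residues, shared 56 of 72 bases and 71.7% of those residues. Identity over the shorter whole protein, aligned with gaps and with the domain included, was 57.9%, 38.8% and 56.1% for the same pairs. This measure is unlike the count over 60 residues, so divergence outside the domain was not measured. AT5G40340, with 1008 residues, was nearest to AT3G09670 (51.7%) and AT5G02950 (53.3%) over the 60 residues. AT1G51745 and AT3G21295 stood apart from the other 5 members over these residues, at 11.7% to 16.7%, in a count by position without gaps. They also lack the proline codon at the start of the motif. Over the shorter whole protein, aligned with gaps, they shared 16.5% to 24.8% with the other 5. Those 5 shared 22.3% or more with each other, so the whole-protein values overlapped. The motif stretch thus goes against grouping all 7 as 1 type, the whole proteins less clearly, and members are named below by locus only.

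**Figure D1:**
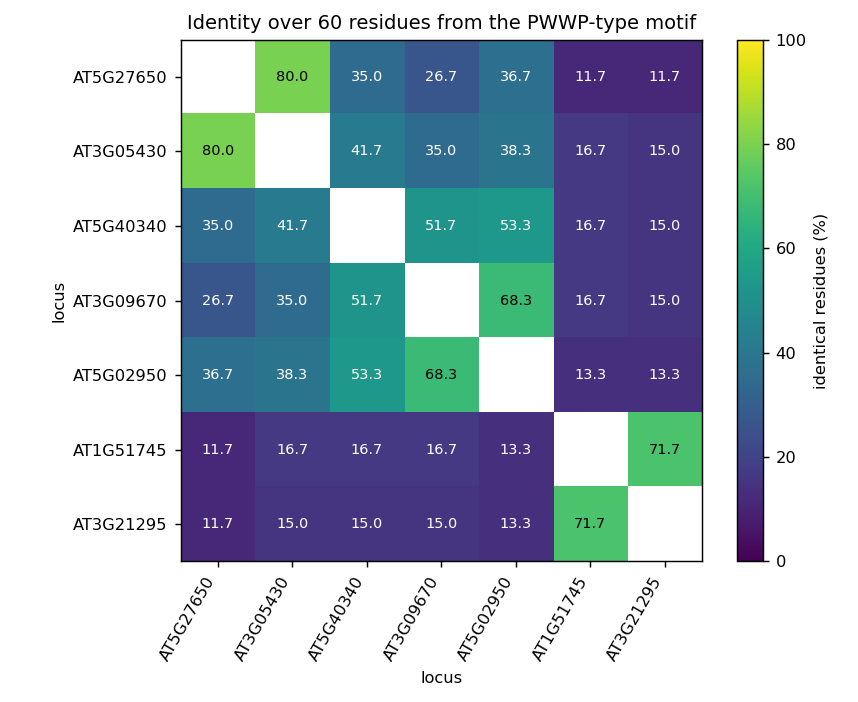
Percentage of identical residues between each 2 members (rows and columns are loci) over 60 residues from the PWWP-type motif, counted by position without gaps. The colour scale runs from 0 to 100% and the cell of a member with itself is blank. The 3 close pairs stand at 80.0%, 68.3% and 71.7%, while AT1G51745 and AT3G21295 share at most 16.7% with the other 5 members.

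The genes lie apart on chromosomes 1, 3 and 5. AT5G27650 spans chr5:9785407-9789354 and AT3G05430 spans chr3:1567624-1571218, each with 2 exon blocks. AT5G40340 spans chr5:16130881-16135393 with 3 blocks. AT3G09670 spans chr3:2966201-2969058 with 2 blocks, and its relative AT5G02950 spans chr5:690685-693099 as 1 block. AT1G51745 spans chr1:19191466-19194908 with 4 blocks, and AT3G21295 spans chr3:7489167-7492896 with 3. None of the 2366 to 3868 distinct exonic stretches of 50 bases in a member, the length of the reads, occurs at a second place in the genome. At their ends AT3G09670, AT5G02950 and AT3G21295 overlap genes on the opposite strand by 14 to 158 exonic bases. The libraries' strand is not stated in these sources, so reads from these overlaps cannot be assigned. The overlapping genes measured beside them, AT3G09660, AT5G02960 and AT3G21300, did not pass the test in any of the 8 comparisons, at adjusted p (limma) of at least 0.0759, and the fourth, AT3G09680, was too low to be tested.

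Levels are the authors' adjusted counts, scaled to a common total of 1e+06 in each table (CPM, counts per 1e+06), where 1 adjusted count is worth 0.0465 CPM in the first table and 0.0520 in the second. Library sums of adjusted counts ranged between 21259805 and 21722950 (Col-0, fve, suvh2/9) and between 18609045 and 19534578 (second table). The 2 tables were normalised separately, so levels are compared within a table only. Low adjusted counts (0.5 to 10) were whole to within 0.2 for 99.8% or more of the genes in 12 libraries, for 72.8% in rrm1 replicate 1 and for 90.0% in quadruple replicate 1, so the last 2 stand apart and results that rest on them are also given without them. Nothing in the labels says whether replicates came from separate cultures, so p-values measure only the spread between these libraries, which may be technical. Seedlings are bulk samples, in which fewer cells of a type and less RNA per cell cannot be told apart. FVE fell from 66.5 ± 0.990 CPM (SD, n = 2) in Col-0 to 15.3 ± 0.307 in fve (limma adjusted p = 4.75e-08). SUVH9 fell by 4.39 on the log2 scale in suvh2/9 (limma adjusted p = 8.13e-11), while SUVH2 was at 7.31 ± 0.0469 CPM against 9.46 ± 0.0467 in Col-0 (SD, n = 2, log2 difference -0.33, adjusted p = 0.335). The summed level of 4 markers of green tissue was 37700 to 42600 CPM in all 14 libraries. The 5 root markers summed to 61.4 to 76.7 CPM in the first table. In the second they summed to 99.1 and 102 in Col-0, to 110 and 119 in rrm1, to 88.9 and 93.3 in pdp1/2/3 and to 94.3 and 102 in the quadruple mutant, so rrm1 lay above Col-0 and pdp1/2/3 below it without overlap. The 2 seed markers summed to 0.103 to 0.508 CPM outside the rrm1 and quadruple libraries, to 11.1 and 29.3 in the 2 rrm1 libraries and to 10.6 and 21.4 in the 2 quadruple libraries. The 3 flower markers summed to at most 1.04 CPM elsewhere, to 4.46 and 5.60 in rrm1 and to 5.37 and 5.61 in the quadruple mutant. Most of this was PI, at a mean of 0.625 CPM in the second Col-0 group, 4.34 in rrm1 and 4.91 in the quadruple mutant. AP3 was at 0.234, 0.608 and 0.421 and AP1 at 0.0784, 0.0772 and 0.159 in the same order. Of the seed markers, CRA1 was high in every rrm1 and quadruple library. CRU3 was at 6.43 CPM in 1 rrm1 library and 4.56 in 1 quadruple library, and barely detected in the other of each. The part of root, seed and flower tissue in the results on the members in rrm1, pdp1/2/3 and the quadruple mutant was not tested.

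In wild-type seedlings the members spanned an order from abundant to scarce that was nearly the same in both tables. Per kb of exon, the mean level in the first Col-0 group was 14.2 CPM for AT5G40340, 8.89 for AT5G27650, 5.72 for AT1G51745, 5.03 for AT3G09670, 3.44 for AT3G21295, 2.21 for AT5G02950 and 1.44 for AT3G05430, and no 2 neighbours in this order overlapped between libraries. In the second Col-0 group it was 19.4 CPM per kb for AT5G40340 and 11.6 for AT5G27650, and AT3G09670 (5.07) and AT1G51745 (4.72) overlapped. Within each close pair, 1 member was the more abundant. Per kb, AT5G27650 stood 6.25 ± 0.812 times above AT3G05430 in the first Col-0 group and 7.20 ± 0.0558 times in the second (SD, n = 2). AT3G09670 stood 2.35 ± 0.585 and 2.69 ± 0.161 times above AT5G02950. AT1G51745 stood 1.68 ± 0.258 and 1.12 ± 0.127 times above AT3G21295. On the scale of CPM per kb of exon, AT5G40340 ranked at percentile 63.7 of the genes tested in the first Col-0 group and at 73.0 in the second. AT3G05430 ranked at 10.3 and 13.0, so the members ran from low to moderately high levels per kb.

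**Figure D2:**
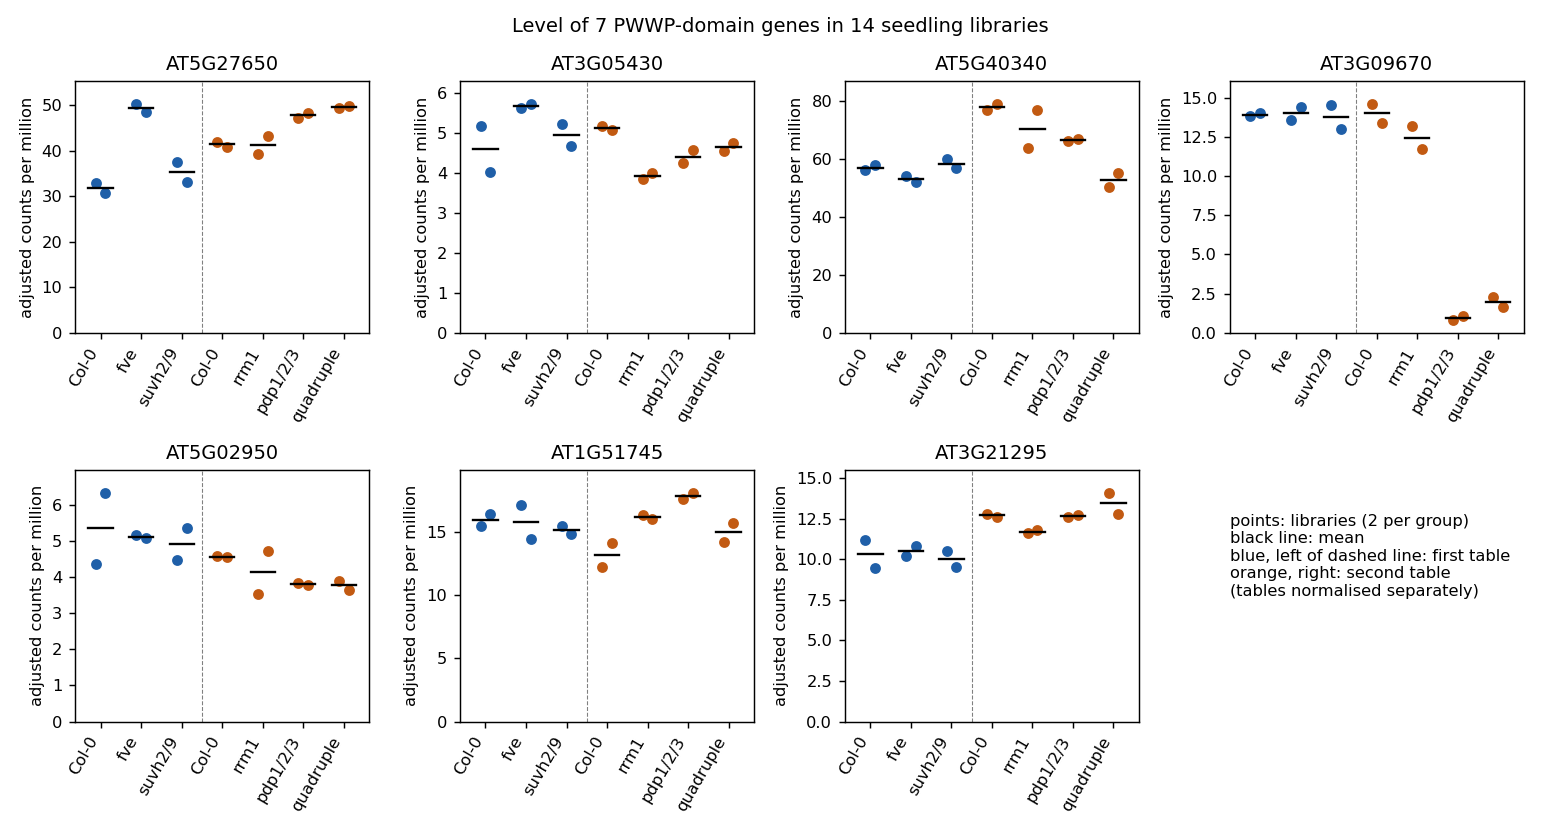
Level of each member in all 14 libraries (vertical axis, CPM from 0; horizontal axis, groups), with points for libraries, a black line for the mean, and a dashed line between the 2 separately normalised tables. AT3G09670 lies at 0.839 to 2.29 in the pdp1/2/3 and quadruple libraries and at 11.7 or above in the other libraries, and AT5G27650 lies at 48.6 and 50.3 in fve against 30.8 and 32.9 in its Col-0.

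The first comparison asked whether the members' transcripts differed between the triple mutant pdp1/2/3 and Col-0. AT3G09670 was almost lost and AT1G51745 rose, while the other 5 did not pass the test. A gene passed at an adjusted p (Benjamini-Hochberg over all genes tested) below 0.05. Of the 7 members 2 passed, beside 18.3% of the 19241 genes tested, and 6 had libraries that did not overlap between the groups, beside 59.4%. The median difference of the members was -0.18 on the log2 scale, and that of all genes -0.01.

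AT3G09670 was at 14.6 and 13.4 CPM in the Col-0 libraries, at 0.839 and 1.09 in pdp1/2/3, at 13.2 and 11.7 in rrm1 and at 2.29 and 1.67 in the quadruple mutant. All 4 libraries with the pdp1/2/3 mutations were low and the other 4 high, with no overlap. The mean in pdp1/2/3 was 0.963 ± 0.176 CPM (SD, n = 2), which is 0.0688 of the Col-0 mean. The difference of -2.94 (SE 0.139) on the scale of log2(CPM + 1) had the smallest p of all 19241 genes (rank 1, limma adjusted p = 8.9e-07). Its partner AT5G02950 was at 4.57 and 4.55 CPM in Col-0 and at 3.82 and 3.78 in pdp1/2/3, a difference of -0.21 with a 95% interval from -0.51 to 0.08 (adjusted p = 0.324). Per kb, AT3G09670 thus went from 2.69 ± 0.161 times the level of AT5G02950 in Col-0 to 0.222 ± 0.0423 times in pdp1/2/3 (SD, n = 2).

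AT1G51745 was at 12.2 and 14.1 CPM in Col-0, at 17.6 and 18.1 in pdp1/2/3, at 16.3 and 16.0 in rrm1 and at 14.2 and 15.7 in the quadruple mutant. The 3 mutant groups were all above the Col-0 libraries. In pdp1/2/3 the gene rose 1.36-fold (log2 difference 0.42, SE 0.096, limma adjusted p = 0.00966). The call was lost without Col-0 replicate 3 (0.32, adjusted p = 0.114) and without pdp1/2/3 replicate 2 (0.40, adjusted p = 0.0531). Its partner AT3G21295 was at 12.8 and 12.6 CPM in Col-0 and at 12.6 and 12.7 in pdp1/2/3, and the 95% interval of its log2 difference ran from -0.20 to 0.20.

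The other pair and AT5G40340 showed smaller differences in pdp1/2/3. AT5G40340, the most abundant member, was at 76.8 and 78.9 CPM in Col-0 and at 66.2 and 66.8 in pdp1/2/3, a log2 difference of -0.22 (SE 0.087, limma adjusted p = 0.0986). It passed in only 2 of 14 alternatives, among them when only the 2 groups were fitted (limma adjusted p = 0.0374). Over all 14 its difference ranged from -0.24 to -0.20, and without rrm1 and quadruple replicates 1 together it was -0.22. AT5G27650 was at 42.0 and 40.8 CPM in Col-0 and at 47.3 and 48.4 in pdp1/2/3 (log2 difference 0.20, SE 0.071, adjusted p = 0.0673). AT3G05430 was at 5.18 and 5.08 CPM in Col-0 and at 4.24 and 4.56 in pdp1/2/3 (-0.18, 95% interval -0.44 to 0.07). For these 3 genes the libraries of the groups did not overlap, as for most genes in this comparison.

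**Figure D3:**
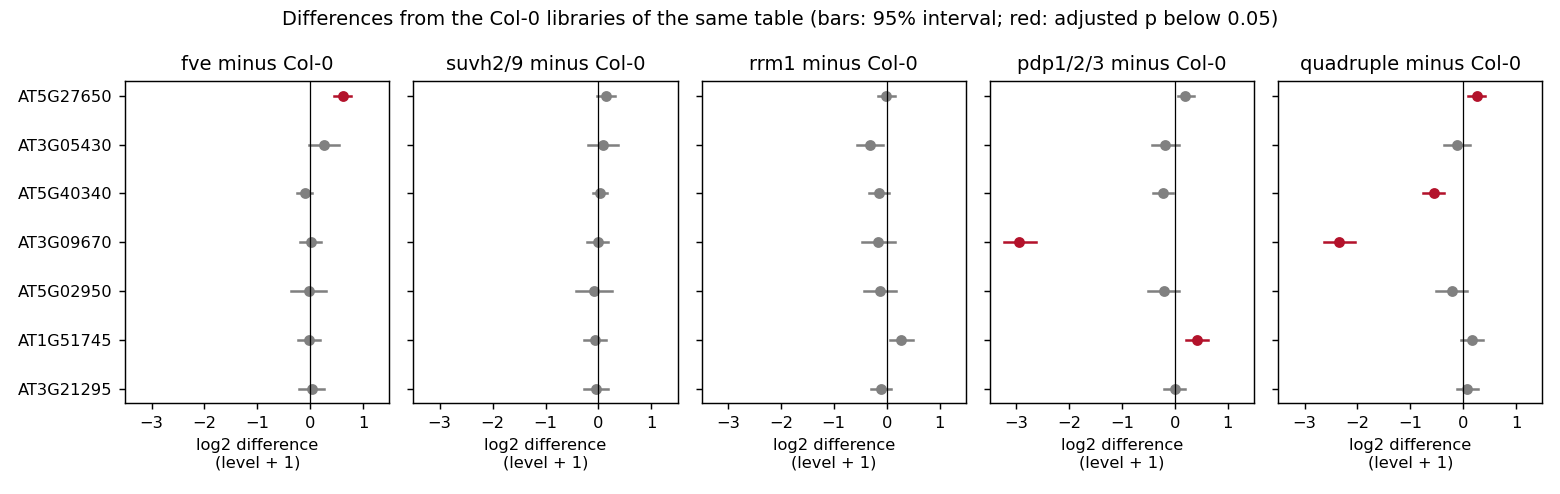
Log2 difference of level + 1 of each member (rows) between each of 5 mutants and the Col-0 libraries of the same table, 2 libraries per group; points are estimates, bars are 95% intervals and red marks an adjusted p below 0.05. AT3G09670 stands at -2.94 in pdp1/2/3 and -2.34 in the quadruple mutant, and AT5G27650 at 0.62 in fve.

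In the quadruple mutant AT3G09670 and AT5G40340 fell and AT5G27650 rose against Col-0. The 3 members called stood beside 17.8% of all genes, and all 7 had groups that did not overlap, beside 60.9%. The members' median log2 difference was -0.12, that of all genes 0.00. AT3G09670 was at 1.98 ± 0.442 CPM (SD, n = 2), 0.141 of Col-0 (log2 difference -2.34, SE 0.139, limma adjusted p = 2.01e-06). AT5G40340 was at 50.3 and 55.0 CPM, below all other libraries of the table, and fell to 0.676 of Col-0 (-0.56, SE 0.087, adjusted p = 0.000999). AT5G27650 was at 49.5 and 49.9 CPM, the highest of the table, and rose 1.20-fold (0.26, SE 0.071, adjusted p = 0.0256). That last call was lost in 6 of 14 alternatives, among them leaving out either Col-0 library (adjusted p = 0.106 and 0.160) or either quadruple library (0.0659 and 0.104), whereas the calls of AT3G09670 and AT5G40340 held in all 14. With these opposite differences AT5G27650 stood above AT5G40340 per kb in the quadruple mutant, at 13.9 against 13.1 CPM, the reverse of their order in Col-0.

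**Figure D4:**
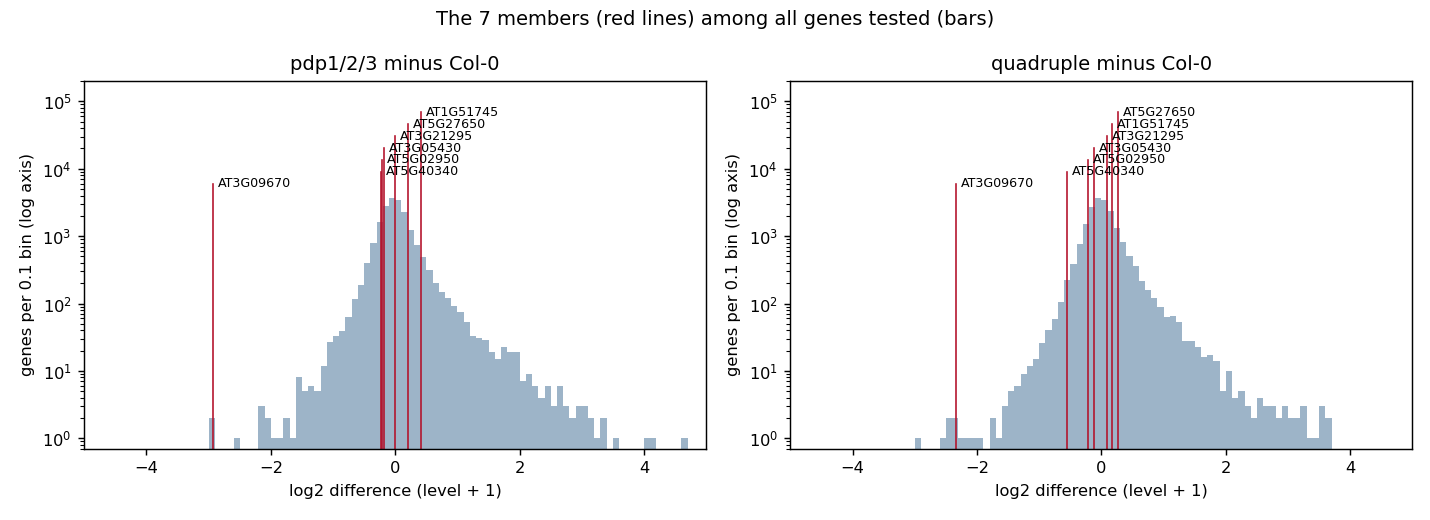
Number of genes per bin of 0.1 (vertical log axis) against the log2 difference of level + 1 for pdp1/2/3 (left) and the quadruple mutant (right) minus Col-0, over 19241 genes; red lines of staggered height mark the 7 members. AT3G09670 lies at the low end of both distributions, and the other 6 members lie between -0.22 and 0.42 in pdp1/2/3 and between -0.56 and 0.26 in the quadruple mutant.

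In rrm1 alone none of the 7 members passed the test (limma), beside 4.03% of all genes. Beside 18.9% of all genes, 2 members had an unadjusted p below 0.05. These were AT3G05430, at 3.92 ± 0.112 CPM against 5.13 ± 0.0688 in Col-0 (SD, n = 2, log2 difference -0.32, adjusted p = 0.154), and AT1G51745 (0.28, adjusted p = 0.128). The groups did not overlap for 4 members, beside 53.2% of all genes. AT5G27650 was at 39.3 and 43.2 CPM, on either side of its Col-0 libraries, and AT3G09670 at -0.16 (95% interval -0.46 to 0.15). AT5G40340 was low in the library that stands apart, rrm1 replicate 1 (63.6 CPM), and at the Col-0 level in replicate 2 (76.8). The members' median log2 difference was -0.13, beside 0.01 for all genes.

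The quadruple mutant was then compared with each of its parts. Against pdp1/2/3, 1 member passed, beside 2.96% of all genes, and 5 had groups that did not overlap, beside 43.0%. This was AT3G09670, which rose 2.06-fold from its low level in pdp1/2/3 (log2 difference 0.60, SE 0.139, limma adjusted p = 0.0420), although the call was lost in 12 of 15 alternatives, and without quadruple replicate 1 the difference was 0.45 (adjusted p = 0.253). AT5G40340 was at -0.33 (SE 0.087, limma adjusted p = 0.0657), with 66.2 and 66.8 CPM in pdp1/2/3 against 50.3 and 55.0 in the quadruple mutant. It passed in only 2 of 15 alternatives, those without 1 of the rrm1 libraries. Over all alternatives the difference ranged from -0.40 to -0.27, and without rrm1 and quadruple replicates 1 together it was -0.27.

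Against rrm1, 3 members passed, beside 7.96% of all genes, and 6 had groups that did not overlap, beside 52.6%. AT3G09670 fell to 0.159 of the rrm1 level (log2 difference -2.18, limma adjusted p = 1.83e-05). AT5G40340 fell to 0.750 of it (-0.40, adjusted p = 0.0147), a call lost in 4 of 15 alternatives, among them without rrm1 replicate 2 (-0.27, adjusted p = 0.113) and without quadruple replicate 1 (-0.34, adjusted p = 0.0812). AT5G27650 rose 1.20-fold (0.26, adjusted p = 0.0409), a call lost in 11 of 15 alternatives. Without rrm1 and quadruple replicates 1 together its difference was 0.20 (adjusted p = 0.351).

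The interaction asks whether the quadruple mutant differs from the sum of the log2 differences of rrm1 and pdp1/2/3. No member passed (limma), beside 0.301% of all genes, and 3 had an unadjusted p below 0.05, beside 11.6%. The largest estimates were 0.76 for AT3G09670 (95% interval 0.33 to 1.19, adjusted p = 0.147) and -0.53 for AT1G51745 (-0.82 to -0.23, adjusted p = 0.139). Without rrm1 and quadruple replicates 1 together these estimates were 0.69 and -0.45. For AT1G51745 the single differences of 0.28 in rrm1 and 0.42 in pdp1/2/3 stand beside 0.17 in the quadruple mutant. For AT5G40340 the differences of -0.15, -0.22 and -0.56 gave an interaction of -0.18 (95% interval -0.45 to 0.09), and of -0.25 without those 2 replicates.

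In fve, which lacks most of the transcript of the histone-binding partner FVE, AT5G27650 rose and no other member passed. This 1 call stood beside 1.89% of the 19090 genes tested in the first table, and 3 members had groups that did not overlap, beside 46.8%. AT5G27650 was at 32.9 and 30.8 CPM in Col-0 and reached 50.3 and 48.6 in fve, with 37.5 and 33.2 in suvh2/9. Both fve libraries were well above the other 4. The gene rose 1.55-fold (log2 difference 0.62, SE 0.075, limma adjusted p = 0.00124), and the call held in 12 of 12 alternatives, at adjusted p from 0.000123 to 0.0391. Its close relative AT3G05430 was at 5.18 and 4.03 CPM in Col-0 beside 5.61 and 5.72 in fve (0.26, 95% interval -0.03 to 0.54, adjusted p = 0.418). With this rise AT5G27650 became the most abundant member per kb in fve, at 13.8 CPM against 13.2 for AT5G40340. The latter was at 54.0 and 52.0 CPM in fve, slightly below the 56.2 and 57.7 of Col-0 (-0.10, adjusted p = 0.502). For AT3G09670, AT5G02950, AT1G51745 and AT3G21295 the difference was between -0.03 and 0.03. The members' median was 0.01, beside -0.01 for all genes.

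The suvh2/9 plants are labelled as mutant in SUVH2 and SUVH9, a pair of histone methyltransferase-like genes of the RNA-directed DNA methylation pathway. Of these, SUVH9 alone passed the test here, and SUVH2 was lower without passing (log2 difference -0.33). In suvh2/9 none of the 7 members passed (limma), beside 0.571% of all genes, and 0 had an unadjusted p below 0.05, beside 6.64%. The groups did not overlap for 2 members, beside 33.0%. The estimates ran from -0.09 for AT5G02950 (95% interval -0.42 to 0.25) to 0.15 for AT5G27650 (-0.02 to 0.31). The median of the members was -0.01 and that of all genes 0.00.

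Across the groups of the second table the mean of AT3G09670 varied 14.5-fold, that of AT5G40340 1.48-fold, that of AT1G51745 1.36-fold and that of AT3G05430 1.31-fold, while the other 3 varied 1.15-fold to 1.21-fold. In the first table AT5G27650 varied 1.55-fold and the other 6 varied 1.02-fold to 1.23-fold. Summed per kb over the 7 members, the level was 48.4 ± 0.213 CPM (SD, n = 2) in the second Col-0 group, 46.1 ± 3.03 in rrm1, 43.8 ± 0.632 in pdp1/2/3 and 40.5 ± 0.800 in the quadruple mutant. In the first table the sum was 40.9 ± 0.0378 in Col-0, 45.1 ± 1.02 in fve and 41.7 ± 2.05 in suvh2/9. AT5G40340 and AT5G27650 together made up 56.4% to 68.2% of the sum. AT3G09670 made up 10.5% of it in the second Col-0 group, 0.795% in pdp1/2/3 and 1.77% in the quadruple mutant.

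The genes whose levels followed each member most closely were sought by Pearson's r over the 14 libraries, after centring each gene within its table, among genes of at least 5 CPM. AT3G09670 was most like AT1G78170, annotated as an E3 ubiquitin-protein ligase, and CLE16, a CLAVATA3/ESR-related peptide gene (r = 0.982 for both). AT5G27650 was most like AT3G27030 (0.939) and the F-box gene AT1G53790 (0.934). AT5G40340 was most like AT1G75900, a GDSL lipase (0.939), and XCP1, a xylem cysteine peptidase (0.922). AT1G51745 was most like AT5G03120 (0.920) and TSC10A, a ketodihydrosphinganine reductase of sphingolipid synthesis (0.902). AT3G05430 was most like ABO5 (0.867), AT5G02950 like AT1G33480 (0.852) and AT3G21295 like AT3G54460 (0.833). These are descriptions of the highest of about 14450 coefficients over libraries that share groups. No member was among the 2 nearest genes of another, and within the closest pair by sequence r was 0.57.

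Over 7 lists of the members' partners and relatives, 7 of 392 results in the 8 comparisons were called (1.79%), beside 6.73% of the results of all genes; the comparisons share libraries and some genes are in 2 lists, so this is a description. Of 5 genes for FVE and its MSI relatives, FVE fell in fve, MSI3 rose in rrm1 (log2 difference 0.42, limma adjusted p = 0.0358) and NFC5 (MSI5) was higher in the quadruple mutant than in rrm1 (0.41, adjusted p = 0.0420). The PEAT list held 8 genes of that complex other than the members. Of these, AT5G04670, an Enhancer of polycomb-like gene, was at 26.9 ± 0.391 CPM in Col-0 (SD, n = 2). It fell to 20.6 ± 0.940 in pdp1/2/3 (limma adjusted p = 0.00946) and to 21.4 ± 1.89 in the quadruple mutant (adjusted p = 0.0210). Of 8 tested of 11 Polycomb Repressive Complex 2 genes and partners, VEL1, a VIN3-like gene, rose in pdp1/2/3 (0.24, adjusted p = 0.0269) and in the quadruple mutant (0.21, adjusted p = 0.0460). No call fell on the 3 deacetylase genes of the FVE complex or the 7 other genes of the autonomous pathway in the 8 comparisons, with 0 of 24 and 4 of 56 results at an unadjusted p below 0.05 (limma), beside 18.9% of the results of all genes. Nor did any fall on the 9 genes of the HUA2 and ATX families, with 3 of 72, or on the 9 other genes annotated as PWWP superfamily proteins, with 7 of 72; 4 genes are in both lists. AT3G27860 is the PWWP relative outside the set that RefSeq names as nearest to AT5G40340, and it was picked out after its values were seen. It was at 1.15 ± 0.173 CPM in Col-0 and 0.448 ± 0.178 in the quadruple mutant (SD, n = 2, log2 difference -0.57, limma adjusted p = 0.0534). Its level lay near the filter of 1 CPM, and the adjusted p does not allow for the choice of this gene. The medians of these 7 lists lay between -0.16 and 0.13 in all comparisons, where the medians of all genes lay between -0.01 and 0.01.

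Of the 6 genes of the FLC clade, the known targets of this group of proteins, FLC, MAF4 and MAF5 rose in fve, in pdp1/2/3 and in the quadruple mutant, and MAF4 and MAF5 in rrm1. FLC itself rose from 0.364 ± 0.0654 CPM in Col-0 to 4.11 ± 1.59 in pdp1/2/3 (SD, n = 2, limma adjusted p = 4.32e-05) and to 8.84 ± 0.0335 in the quadruple mutant (adjusted p = 3.49e-06). In fve it rose from 0.371 ± 0.0716 to 11.2 ± 0.223 CPM (adjusted p = 6.02e-07). AT3G09670 was low in pdp1/2/3 and the quadruple mutant, where FLC was high. In fve, where FLC was high as well, AT3G09670 was at 13.6 and 14.4 CPM. In rrm1, where FLC was not among the calls, it was at 13.2 and 11.7 CPM. A relation between the levels of these genes was not tested.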

How the data were processed

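RNA of 14 Arabidopsis seedling libraries was sequenced as single reads of 50 nt; per the submitters' processing notes, TAIR10 was the genome build and the tools were HISAT2, featureCounts and edgeR (versions and roles unstated). The authors deposited, for every gene, a normalised signal whose definition is not stated and that sums to nearly the same total in each library of a table, like counts adjusted to a common size. Whole reads were not recovered, so tests on reads were not run. Each value was scaled by the geometric mean library total (21485094 or 19220337 adjusted counts) to 1e+06 and tested as log2(level + 1) for genes of at least 1 CPM in 2 libraries (19090 and 19241), with limma 3.58.1 in R 4.3.3 (mean-variance trend, 1 fit per table over all its groups, two-sided). The 8 comparisons comprise 5 mutants against Col-0 of their table, the quadruple mutant against pdp1/2/3 and rrm1, and the interaction; those of a table share its Col-0 or mutant libraries. The fit was checked only on counts simulated with 1 small spread for all genes. The reliability of calls at the larger spread of some genes here was not tested. Fold changes on the log2 scale understate those of low genes.

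Sequences and gene spans are from RefSeq TAIR10.1, whose gene models may differ from those the authors counted; exon lengths for values per kb are the union of its exons. Identity was computed from a global alignment of the translated coding sequences. The named genes are the 7 members, the called genes of the lists, and for each member the 2 genes (here both or the first) of highest r. Genes behind the labels, genes that overlap a member and the uncalled AT3G27860 were named besides. The members and lists were chosen with earlier results of these data known, and the list of genes annotated as PWWP superfamily proteins was added after the values were at hand. Whether the replicate numbers pair the samples is not stated, so the main fit left them unpaired. Same-numbered libraries correlated at -0.10 to 0.20 in their deviations from group means, which cannot settle it with 2 libraries per group. Alternatives were a pseudocount of 0.1, no filter, no trend, only the groups compared, median-ratio rescaling, a replicate block, and leaving out libraries.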

Additional observations from a re-analysis of the deposited data

How the results depend on the processing

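Of 763 recomputed differences over 56 member results, 696 kept direction and side of the threshold, 35 lost a call, 4 gained one and 28 changed sign, none of these called in either fit. The number of members called was 1 for fve and 0 for suvh2/9, rrm1 and the interaction under every alternative run. For pdp1/2/3 it was 2, 1 to 2 with one library left out, and 3 with only the groups compared or without rrm1 and quadruple replicates 1 together. For the quadruple mutant against Col-0 it was 3, and 2 to 3 under the alternatives. For the quadruple mutant against pdp1/2/3 the member that passed changed from AT3G09670 to AT5G40340 where 1 rrm1 library was left out. With one library left out the difference of AT3G09670 ranged from 0.45 to 0.75. The number of members called there was 1 in the main fit, but 0 with no filter, no mean-variance trend, only the groups compared or the replicate block. For the quadruple mutant against rrm1 it was 3, but 1 with no filter or no trend, and 1 to 3 with one library left out; under the replicate block it lost AT5G27650 (adjusted p = 0.101). The block, fitted where groups share numbers, changed no other member call.

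The uncalled differences that changed sign had estimates between -0.13 and 0.12, and the cause was not tested. With one library left out, these log2 differences ranged in fve from -0.03 to 0.05 for AT3G09670, -0.26 to 0.19 for AT5G02950, -0.14 to 0.10 for AT1G51745, -0.08 to 0.14 for AT3G21295. In suvh2/9 the ranges were -0.15 to 0.07 for AT3G21295, -0.06 to 0.24 for AT3G05430, -0.31 to 0.14 for AT5G02950, -0.01 to 0.07 for AT5G40340, -0.08 to 0.06 for AT3G09670. In rrm1 they were -0.07 to 0.06 for AT5G27650, -0.29 to 0.04 for AT5G02950. In pdp1/2/3 the range was -0.01 to 0.01 for AT3G21295. In the quadruple mutant it was, against pdp1/2/3, -0.05 to 0.03 and, against rrm1, -0.26 to 0.07, both for AT5G02950. In the interaction they were -0.01 to 0.13 for AT5G27650, -0.05 to 0.28 for AT5G02950. Without rrm1 and quadruple replicates 1 together, AT5G27650 and AT5G02950 stood at 0.06 and 0.04 in rrm1 and at 0.00 and -0.09 in the interaction, and with median-ratio rescaling AT3G21295 stood at 0.00 in pdp1/2/3.

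Counts over all genes moved more with the setting. With one library left out they were 100 to 666 for fve (361), 51 to 156 for suvh2/9 (109), 204 to 1234 for rrm1 (775), 1826 to 3571 for pdp1/2/3 (3513), 1542 to 3832 for the quadruple mutant (3427), 182 to 508 for it against pdp1/2/3 (570), 434 to 1821 against rrm1 (1531) and 5 to 344 for the interaction (58). Under the other settings they were 125 to 659, 59 to 178, 270 to 1746, 2743 to 3536, 2639 to 3738, 173 to 567, 843 to 1541 and 2 to 56 in the same order, and without rrm1 and quadruple replicates 1 together 341 for rrm1, 3303, 2653, 166, 618 and 71 for the comparisons after it, so the shares printed beside the members' counts hold for the main setting. With 2 libraries per group, and 1 adjusted count worth 0.0465 or 0.0520 CPM, small differences of the scarce members AT3G05430 and AT5G02950 were not detectable.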
